A study of Homo sapiens with 42 samples.

Results

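The 9 retinoid metabolism genes CYP26A1, CYP26B1, DHRS3, ALDH1A1, ALDH1A2, ALDH1A3, RARB, CRABP2 and STRA6 were taken by symbol from the 60609 genes counted in 42 polyA RNA-seq libraries of 786-O cells. CYP26B1 and DHRS3 were selected because they were the largest increases in 1 of the comparisons, that of the HIF-2α knock-in clone with wild-type cells, so this comparison is given as a description with no test. That choice used the batch 1 WT libraries and favours genes with a low level in them, so the tests of both genes in the other batch 1 lines against WT share a reference with it and are not independent of it. Comparisons between lines, and those with the separate WT libraries of batch 2, do not use that reference. The other members were chosen as enzymes, binding proteins, a receptor and a transporter of the same pathway. Members and the wider gene lists were chosen with earlier results of these data known. In no comparison can counts of them be read as an excess over the share of all genes.

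Vitamin A (retinol) is carried in blood by a binding protein and enters cells through the membrane receptor STRA6. Retinol is oxidised reversibly to retinaldehyde, which short-chain reductases such as DHRS3 convert back to retinol, and retinaldehyde dehydrogenases of the ALDH1A family oxidise retinaldehyde irreversibly to retinoic acid. Retinoic acid is carried to the nucleus by CRABP2, binds heterodimers of retinoic acid and retinoid X receptors on DNA, and is cleared by hydroxylases of the CYP26 family. CYP26A1, RARB and DHRS3 are themselves classical retinoic acid targets, and retinoid handling is an old theme of kidney development and of renal carcinoma.

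786-O is a clear cell renal cell carcinoma (ccRCC) line with no functional VHL, the ubiquitin ligase that removes HIF-α subunits, so its HIF-2α is stable, and it lacks functional HIF-1α. All groups share this background. In batch 1, unedited cells (WT) were compared with HIF-1β KIN (clone A21) and HIF-2α KIN (clone A31), each a single clone with a V5-Halo tag at the N-terminus of both endogenous copies, and with 6 stable lines in which the weak L30 promoter drives a V5-Halo-tagged subunit. These were HIF-1α, its DNA-binding mutant R30E, its dimerization mutant HIF-1αDM (R170A and V191D), HIF-2α, its DNA-binding mutant R27E and its dimerization mutant HIF-2αDM (R171A and V192D). In batch 2, WT was compared with HIF-1α, HIF-2α and both chimeras, in which the structured N-terminal part and the long intrinsically disordered region (IDR) were exchanged. HIF-2α/1α joins residues 1 to 365 of HIF-2α to residues 364 to 826 of HIF-1α, and HIF-1α/2α joins residues 1 to 363 of HIF-1α to residues 366 to 870 of HIF-2α. Each group had 3 libraries, called biological replicates in the study's methods. Each construct is represented by a single stable line, there is no line carrying the tag alone, and the endogenous HIF-2α is present in every transgene line. The p-values therefore compare these lines only. Per the study's methods, transgene lines were made by nucleofection and PiggyBac transposition and selected with puromycin, a treatment not described for WT cells. In comparisons of these lines with WT, this handling and the transgene cannot be told apart.

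Libraries held between 42377599 and 101186554 counts in batch 1 and between 76366799 and 109642159 in batch 2. Values are normalized counts, the count scaled to the mean effective library size of its own batch, and are not comparable between batches; 3 counts in a library correspond to 2.09 to 4.79 normalized counts in batch 1 and 2.42 to 3.55 in batch 2. The labels were checked on the HIF genes, whose rows also hold transgene reads. HIF1A rose from 243 ± 16.8 in WT to 3036.5 ± 215 in HIF-1α in batch 1 and from 295 ± 26.4 to 13251.5 ± 489 in batch 2 (mean ± SD, n = 3). EPAS1, the HIF-2α gene, was at 14546.9 ± 2123.6 in WT and 45190.9 ± 6573.7 in HIF-2α in batch 1, and at 6159.5 ± 511 in HIF-2α KIN. All 6 markers of a renal epithelial tumour line, among them PAX8 and PAX2, were present, with PAX2 the lowest at a mean of 840.5 in batch 2. Each of the marker lists of leukocytes, endothelium, hepatocytes and red cells, summed separately, came to at most 37.2 normalized counts in any library, and CD3E was at 0 in all. The libraries numbered 3 in batch 1 stood apart in several members: over the 9 groups, STRA6 was highest in them in 7, and DHRS3, ALDH1A1 and CRABP2 were each lowest in them in 7. Calls that changed without these libraries, an alternative chosen after the values were seen, are given beside the results.

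The sequences that bear on these genes are the regions just before their transcription starts (RefSeq, GRCh38.p14), where HIF would be sought through its core site (ACGTG or GCGTG on either strand) and retinoic acid receptors through direct repeats with 5 bases between. The repeated hexamer was AGGTCA or the variants AGTTCA and also GGGTCA and also GGTTCA, in any combination and on either strand. All 9 members matched, with 20 starts in all. The 3 genes whose levels moved most are shown first, as the 250 bases that end at base -1 of the start, 5′ to 3′ on the gene's strand, with matches to TATAAA and CCAAT, on either strand, in capitals. They are CYP26B1 (chr2:72147863-72148112, minus strand, directly before the annotated gene), the first of 3 DHRS3 starts (chr1:12618211-12618460, minus strand, directly before the annotated gene) and ALDH1A1 (chr9:72953054-72953303, minus strand, inside the span of the annotated gene).
CYP26B1: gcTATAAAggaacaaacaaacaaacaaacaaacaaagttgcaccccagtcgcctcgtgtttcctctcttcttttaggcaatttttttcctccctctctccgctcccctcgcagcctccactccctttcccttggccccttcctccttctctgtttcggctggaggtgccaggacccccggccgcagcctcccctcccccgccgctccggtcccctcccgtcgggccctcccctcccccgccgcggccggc
DHRS3: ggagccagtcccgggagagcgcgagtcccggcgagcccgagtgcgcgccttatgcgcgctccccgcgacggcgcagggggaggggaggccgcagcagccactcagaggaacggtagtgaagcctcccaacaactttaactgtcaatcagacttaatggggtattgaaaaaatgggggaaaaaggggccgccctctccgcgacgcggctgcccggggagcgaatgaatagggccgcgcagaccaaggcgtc
ALDH1A1: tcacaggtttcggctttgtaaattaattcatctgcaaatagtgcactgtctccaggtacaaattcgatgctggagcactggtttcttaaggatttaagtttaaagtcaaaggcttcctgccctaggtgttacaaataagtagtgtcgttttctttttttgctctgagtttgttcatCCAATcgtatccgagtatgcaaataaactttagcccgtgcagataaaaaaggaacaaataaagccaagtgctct
None of these windows held a HIF core or a 5-base repeat, whereas 43.2% of the 35116 promoters of the same length held the core, 0.074% (26 promoters) held the repeat, 10.7% held TATAAA and 32% held CCAAT. HIF cores were found in windows of CYP26A1, ALDH1A2, ALDH1A3, RARB and CRABP2, and none in those of STRA6. The 5-base repeat was found in the windows of 2 members, shown as 30 bases around it with the repeat in capitals. In CYP26A1 it lies on the minus strand from base -90 to base -74 of the second start (chr10:93073797-93073826), and in RARB on the plus strand from base -53 to base -37 of the third start (chr3:25428204-25428233).
CYP26A1: taaagaTGAACTTTGGGTGAACTaattgtc
RARB: gggtagGGTTCACCGAAAGTTCActcgcat
These are matches of letters in a window and not measured binding. CYP26A1 and RARB were also among the members with the fewest reads, as given next.

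Of the 9 members, CYP26A1, ALDH1A2 and RARB were close to the limit of detection. CYP26A1, the main inducible retinoic acid hydroxylase, was at 0 in 22 of 27 libraries of batch 1 and in 14 of 15 of batch 2, and was over 3 counts only in 2 libraries, with a highest value of 6.503 normalized counts in HIF-2α KIN. ALDH1A2, a retinaldehyde dehydrogenase, ranged from 0 to 6.49 in batch 1 and from 4.77 to 15.6 in batch 2. RARB, the retinoic acid receptor β gene, ranged from 0 to 10.4 in batch 1 and from 0.827 to 14.6 in batch 2. None of these 3 genes passed the test in any comparison, which at this depth does not show that they were unchanged. All 9 members passed the filter on low values in batch 1 (mean of at least 0.5 normalized counts) and 8 did in batch 2, CYP26A1 being below it. In batch 1 CYP26A1 passed at a mean of 0.566, with 11 of its 15 counts in HIF-2α KIN. Its place among the 9 members tested in batch 1 thus depended on the clone used for the selection.

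The remaining 6 members differed widely in level. As CPM (counts scaled to library size) per kilobase of exon, WT cells of batch 1 held 14.3 ± 2.36 of CRABP2, 8.42 ± 1.52 of ALDH1A1, 1.10 ± 0.189 of ALDH1A3, 0.0657 ± 0.0487 of DHRS3, 0.0642 ± 0.0149 of STRA6 and 0.0174 ± 0.0156 of CYP26B1. Transcripts of CRABP2, ALDH1A1 and ALDH1A3 were thus more abundant in these WT cells than those of DHRS3, the retinol receptor STRA6 and CYP26B1. In HIF-2α KIN on the same scale, ALDH1A1 was at 37.2 ± 9.70, DHRS3 at 3.14 ± 1.25, CYP26B1 at 1.22 ± 0.120 and STRA6 at 0.0338 ± 0.00529. These are levels in bulk RNA, where fewer expressing cells and less RNA per cell cannot be told apart.

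**Figure D1:**
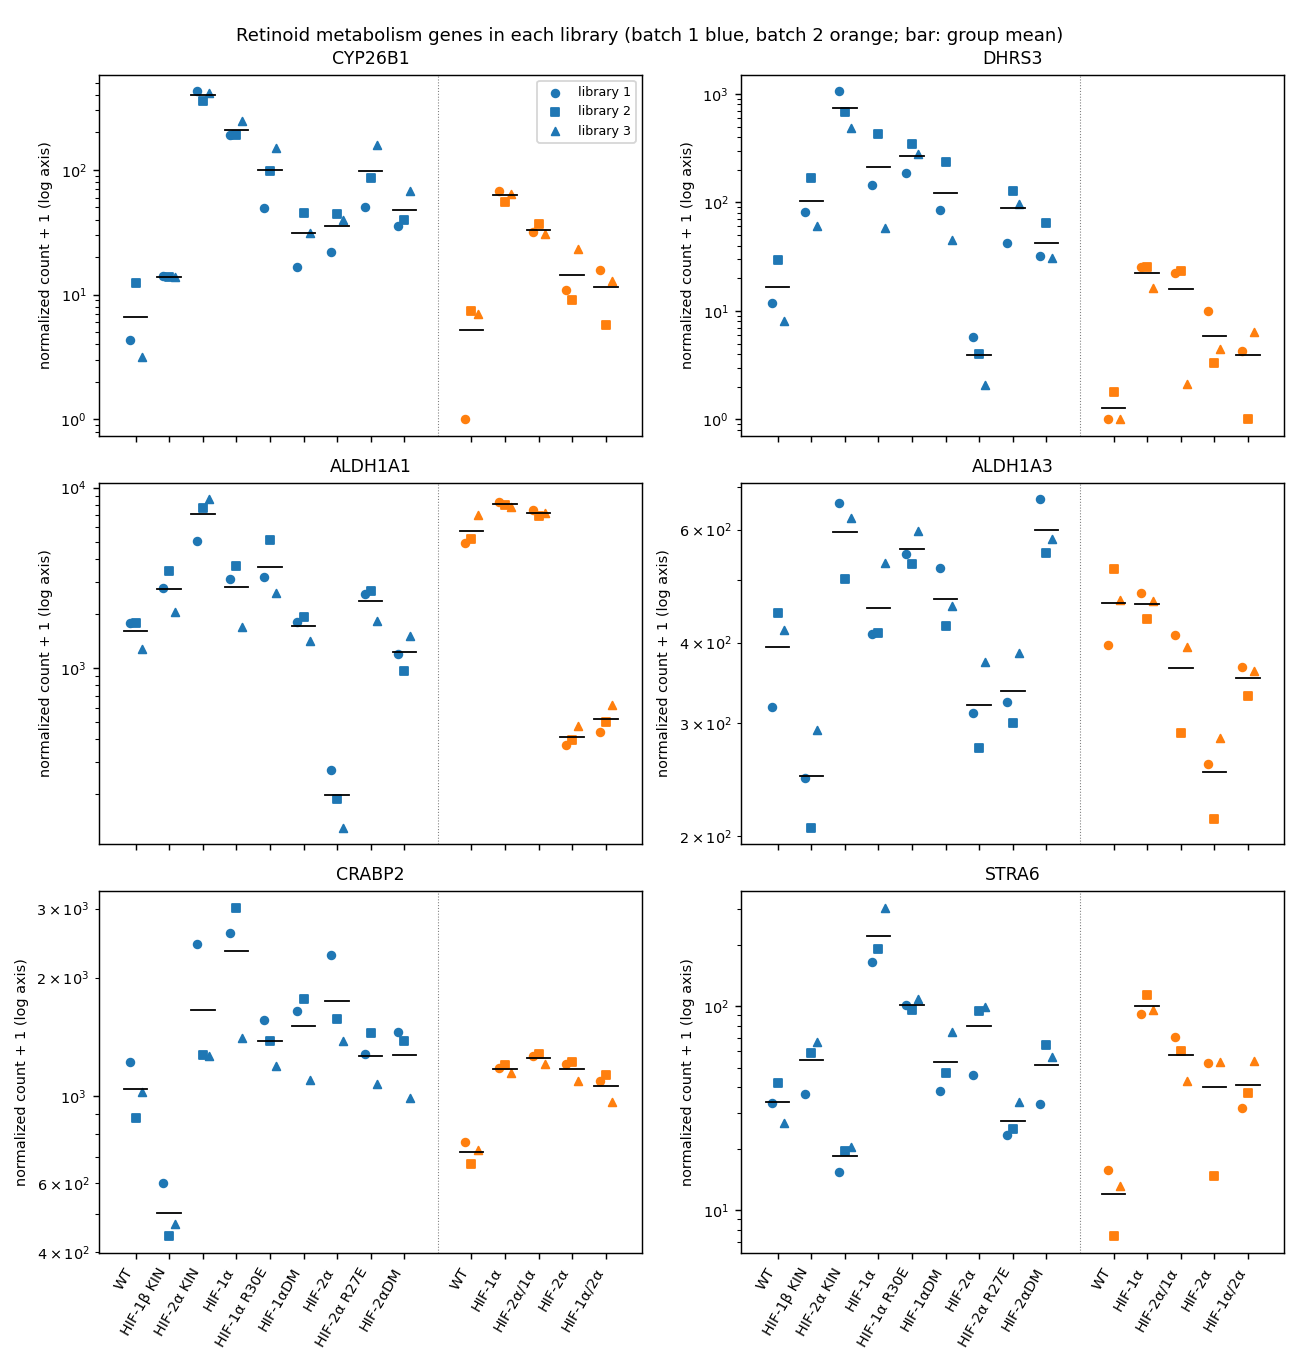
Normalized counts plus 1 (log axis) of the 6 members with more than a few reads, in each of the 42 libraries. Points are libraries, with the shape giving the replicate number, bars are group means, and batch 1 (blue) and batch 2 (orange) have separate scales. ALDH1A1 is lowest in HIF-2α in both batches and in HIF-1α/2α, and CYP26B1 is lowest in WT in both batches.

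STRA6, the retinol uptake receptor, was highest in the HIF-1α line of both batches. In batch 1 its normalized counts were 32.5, 41.0 and 25.7 in WT, 163, 191 and 303 in HIF-1α, 100, 94.4 and 107 in HIF-1α R30E, and 44.7, 93.5 and 98.2 in HIF-2α. Neither HIF-1α nor R30E overlapped WT, and HIF-2α lay just above it. STRA6 rose in HIF-1α by 2.73 on the log2 scale (SE 0.373, edgeR adjusted p = 1.04e-05) and in R30E by 1.61 (SE 0.365, edgeR adjusted p = 0.00554). The call in R30E was lost in each of the 6 fits that left out 1 library of either group (edgeR adjusted p from 0.0106 to 0.0474) and without the libraries numbered 3 (1.42, edgeR adjusted p = 0.0553). In HIF-2α the log2 difference was 1.25 (SE 0.365, edgeR adjusted p = 0.0211), and in HIF-1αDM and HIF-2αDM 0.68 and 0.62, with libraries overlapping WT.

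In batch 2, STRA6 was at 14.7, 6.46 and 12.1 in WT, 90.2, 112 and 94.4 in HIF-1α, 69.5, 59.3 and 42.1 in HIF-2α/1α, 51.7, 13.7 and 52.3 in HIF-2α, and 30.6, 36.7 and 52.8 in HIF-1α/2α. It rose in all 4 lines, by 3.17 (SE 0.397, edgeR adjusted p = 1.47e-08) in HIF-1α, 2.39 (SE 0.405, edgeR adjusted p = 8.83e-06) in HIF-2α/1α, 1.86 (SE 0.415, edgeR adjusted p = 0.000277) in HIF-2α and 1.88 (SE 0.413, edgeR adjusted p = 0.000236) in HIF-1α/2α. Only in HIF-2α did a library, at 13.7, fall within the WT range. In the HIF-2α KIN clone, by contrast, all libraries (14.3, 18.6 and 19.4) lay below WT, with a fitted log2 difference of -0.90 that was not tested.

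DHRS3, the retinaldehyde reductase, was among the most variable members. In batch 1 it was at 10.8, 28.6 and 7.13 in WT, 80.7, 167 and 59.9 in HIF-1β KIN, 1062.6, 681 and 480 in the HIF-2α KIN clone, and 4.79, 2.97 and 1.08 in HIF-2α. The knock-in clones lay above WT in every library, and the HIF-2α line lay below it with only 6 counts in all. The fitted log2 difference of HIF-2α KIN was 5.60. Its increase was chosen from this contrast, in which 4.14% of the 23410 genes tested passed the thresholds (adjusted p of at most 0.01 and at least 2-fold), and nothing is read from it.

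Among the batch 1 transgene lines, DHRS3 was at 143, 426 and 56.9 in HIF-1α, 184, 344 and 277 in HIF-1α R30E, 84.4, 233 and 43.6 in HIF-1αDM, 40.8, 125 and 95.6 in HIF-2α R27E, and 31.1, 63.5 and 30.0 in HIF-2αDM. Every one of these libraries was above the highest WT library. DHRS3 rose in HIF-1α by 3.76 (SE 0.700, edgeR adjusted p = 0.000564) and in R30E by 4.13 (SE 0.706, edgeR adjusted p = 0.000271). The call in HIF-1α was lost without HIF-1α replicate 2 (log2 difference 2.71, edgeR adjusted p = 0.0112).

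The remaining batch 1 differences of DHRS3 from WT did not pass, at 2.73 (SE 0.687, edgeR adjusted p = 0.022) in HIF-1β KIN, 2.98 (SE 0.688, edgeR adjusted p = 0.0263) in HIF-1αDM, 2.53 (SE 0.685, edgeR adjusted p = 0.083) in R27E, 1.44 (SE 0.692, edgeR adjusted p = 0.595) in HIF-2αDM and -2.43 (SE 1.02, edgeR adjusted p = 0.124) in HIF-2α. DHRS3 was highest in library 2 in 7 of 9 groups and lowest in library 3 in 7 of 9, and in the comparisons of HIF-1β KIN, HIF-1αDM and R27E with WT the numbers paired the libraries. Blocking on that number, DHRS3 passed in all 3, at 2.75 (edgeR adjusted p = 0.000113) in HIF-1β KIN, 2.88 (edgeR adjusted p = 0.000129) in HIF-1αDM and 2.64 (edgeR adjusted p = 0.000492) in R27E. Without the libraries numbered 3 it passed in HIF-1β KIN (2.67, edgeR adjusted p = 0.00835) and in HIF-1αDM (3.04, edgeR adjusted p = 0.00581), and DESeq2 also called it in both (DESeq2 adjusted p = 0.0052 and 0.00386). Without the filter on low counts it passed in these lines, in R27E (2.51, edgeR adjusted p = 3.47e-09) and, as a fall, in HIF-2α (-2.42, edgeR adjusted p = 0.000244). The sizes were nearly those of the main fit, so these lower p-values do not stand for larger differences. The fall in HIF-2α rests on 6 counts in that line.

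DHRS3 had few counts in batch 2, with a single count in the 3 WT libraries together (0, 0.807 and 0 normalized counts). It was at 24.3, 24.4 and 15.3 in HIF-1α, 21.2, 22.3 and 1.11 in HIF-2α/1α, 8.95, 2.29 and 3.49 in HIF-2α, and 3.31, 0 and 5.39 in HIF-1α/2α. The lines with the HIF-1α IDR were the higher ones, except for 1 library of HIF-2α/1α near the floor. The ratio of summed counts to WT was 69.2 in HIF-1α (66 counts against 1, exact 95% interval 12.0 to 2775.4) and 50.2 in HIF-2α/1α (45 against 1, interval 8.57 to 2026.9), where the interval covers counting error only. Both rises passed (edgeR adjusted p = 9.89e-05 and 0.000459), while HIF-2α (14 counts, edgeR adjusted p = 0.0201) and HIF-1α/2α (9 counts, edgeR adjusted p = 0.0884) did not.

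ALDH1A1, the most abundant of the retinaldehyde dehydrogenases here, fell in HIF-2α in both batches and in HIF-1α/2α. In batch 1 it was at 1774.5, 1772.3 and 1272.0 in WT and at 270.0, 186 and 129 in HIF-2α, so that the groups did not overlap. The fall was -3.07 on the log2 scale (SE 0.322, edgeR adjusted p = 8.93e-08), to 12.1% of the WT mean. Batch 2 gave 4942.7, 5191.7 and 7025.9 in WT against 371.0, 396 and 476 in HIF-2α, or 7.25% of WT (log2 difference -3.77, SE 0.106, edgeR adjusted p = 1.47e-30). The difference between batches in this response, -0.84 (SE 0.340), did not pass (edgeR adjusted p = 0.377).

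The fall was not seen in the HIF-2α mutants. ALDH1A1 was at 2568.8, 2671.1 and 1806.9 in R27E and at 1191.1, 952.8 and 1505.2 in HIF-2αDM, with log2 differences from WT of 0.56 (edgeR adjusted p = 0.721, 95% interval -0.007 to 1.13) and -0.39 (edgeR adjusted p = 0.779, 95% interval -0.96 to 0.18). Intact HIF-2α was lower than R27E by -3.63 (SE 0.328, edgeR adjusted p = 1.04e-08) and lower than HIF-2αDM by -2.67 (SE 0.318, edgeR adjusted p = 1.05e-06). The EPAS1 row, which sums endogenous and transgene reads, was at 45190.9, 56141.5 and 48508.2 on average in HIF-2α, R27E and HIF-2αDM, and the level of the transgenes alone was not measured.

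In batch 2, ALDH1A1 followed the IDR. It was at 440.6, 497 and 618 in HIF-1α/2α, which carries the HIF-2α IDR on the HIF-1α structured domain, and at 7472.5, 6932.9 and 7189.3 in HIF-2α/1α, which carries the reverse. HIF-1α itself was at 8350.4, 8042.0 and 7775.8. The HIF-1α/2α libraries were all far below WT (log2 difference -3.45, SE 0.103, edgeR adjusted p = 1.07e-29), and HIF-2α/1α overlapped WT. HIF-1α and HIF-2α/1α differed from WT by 0.49 and 0.35, which were under the 2-fold limit although their adjusted p-values were small (edgeR, 2e-05 and 0.00243).

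ALDH1A1 was not low in the HIF-2α KIN clone, where it was at 5026.8, 7659.4 and 8597.6, all above WT (fitted log2 difference 2.15, not tested). HIF-1β KIN was at 2771.8, 3426.0 and 2043.7 (log2 difference 0.77, edgeR adjusted p = 0.205), HIF-1α at 3101.4, 3649.1 and 1681.6 (0.81, edgeR adjusted p = 0.0961) and R30E at 3202.5, 5088.3 and 2588.1 (1.17, SE 0.293, edgeR adjusted p = 0.0134). R30E passed without the libraries numbered 3 (1.24, edgeR adjusted p = 0.000411). The clone with a tagged endogenous HIF-2α and the line with added HIF-2α thus lay at opposite ends of the ALDH1A1 range in batch 1, with EPAS1 at 6159.5 and 45190.9, respectively. The part of the EPAS1 level in this was not tested.

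ALDH1A3, the other retinaldehyde dehydrogenase with more than a few reads, moved little and passed in no comparison. Group means in batch 1 ran from 247 ± 43.1 in HIF-1β KIN to 598.5 ± 61.5 in HIF-2αDM, with WT at 393 ± 67.7. The largest tested differences of batch 1 were -0.67 in HIF-1β KIN (SE 0.191, edgeR adjusted p = 0.0496) and -0.93 of HIF-2α from HIF-2αDM (SE 0.192, edgeR adjusted p = 0.00147), the latter under the 2-fold limit. Without the libraries numbered 3 the latter was -1.06 and passed (edgeR adjusted p = 0.00328). In batch 2 it was at 396, 520.6 and 465 in WT and 258, 212 and 284 in HIF-2α (-0.86, SE 0.139, edgeR adjusted p = 1.55e-06), again under that limit.

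CRABP2, which delivers retinoic acid to its receptors, was at 1217.7, 876 and 1023.7 in WT of batch 1, 598, 438 and 471 in HIF-1β KIN, and 2604.0, 3013.4 and 1403.3 in HIF-1α. The HIF-1β KIN libraries were all below WT and the HIF-1α libraries all above it. CRABP2 rose in HIF-1α by 1.17 (SE 0.270, edgeR adjusted p = 0.00484), a call lost in 5 of the 6 fits that left out 1 library (edgeR adjusted p from 0.0113 to 0.055; the exception was the fit without HIF-1α replicate 3). In HIF-1β KIN the difference was -1.05 (SE 0.272, edgeR adjusted p = 0.0271), and with a replicate block it passed at -1.06 (edgeR adjusted p = 0.000222), as it did with DESeq2 (-1.03, DESeq2 adjusted p = 0.00801).

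In batch 2 no difference of CRABP2 from WT passed the thresholds. WT was at 761, 671 and 726, and the 12 libraries of the 4 lines ran from 964.0 to 1277.2, with none overlapping WT. The log2 differences were 0.70 in HIF-1α, 0.81 in HIF-2α/1α, 0.72 in HIF-2α and 0.58 in HIF-1α/2α (SE of each 0.0852 to 0.0856, edgeR adjusted p from 2.25e-10 to 2.74e-07), all under the 2-fold limit.

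CYP26B1, a retinoic acid hydroxylase, was low in WT of batch 1, where every library of every other group lay above it. It was at 3.33, 11.45 and 2.14 in WT, 13.1, 12.8 and 12.8 in HIF-1β KIN, and 428, 354 and 411 in the HIF-2α KIN clone. All HIF-2α KIN libraries exceeded every other library of the series' first batch, with a fitted log2 difference of 6.18, which was the value that chose the gene and was not tested. In HIF-1β KIN the difference was 1.23 (SE 0.587, edgeR adjusted p = 0.372), with no overlap of the libraries.

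The transgene lines of batch 1 held CYP26B1 at 188, 191 and 244 in HIF-1α, 48.8, 96.5 and 150 in R30E, 15.7, 43.9 and 30.2 in HIF-1αDM, 20.8, 43.0 and 38.9 in HIF-2α, 49.2, 84.9 and 157 in R27E, and 34.6, 38.5 and 66.2 in HIF-2αDM. No library of these lines overlapped WT. CYP26B1 rose by 5.24 (SE 0.563, edgeR adjusted p = 2.49e-07) in HIF-1α, 4.17 (SE 0.552, edgeR adjusted p = 9.33e-06) in R30E, 4.16 (SE 0.552, edgeR adjusted p = 5.23e-05) in R27E, 3.10 (SE 0.549, edgeR adjusted p = 0.00207) in HIF-2αDM and 2.63 (SE 0.562, edgeR adjusted p = 0.00163) in HIF-2α. In HIF-1αDM it was 2.45 higher (SE 0.555, edgeR adjusted p = 0.0224) and passed with a replicate block (2.45, edgeR adjusted p = 0.00177).

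The WT libraries held 19 counts of CYP26B1 in all, and the calls of the smaller rises depended on single WT libraries. The rise in HIF-2α was lost without WT replicate 1 (2.40, edgeR adjusted p = 0.0145) or WT replicate 3 (2.21, edgeR adjusted p = 0.0169). That in HIF-2αDM was lost without either of these (2.84 and 2.67, edgeR adjusted p = 0.0304 and 0.0318) or without HIF-2αDM replicate 3 (2.74, edgeR adjusted p = 0.0198), and HIF-1αDM passed without WT replicate 2 (3.43, edgeR adjusted p = 0.00712). Without the libraries numbered 3, HIF-2α (2.14, edgeR adjusted p = 0.0135) and HIF-2αDM (2.32, edgeR adjusted p = 0.0414) did not pass. Fitted on only the 2 groups compared, the rises in R27E (4.14, edgeR adjusted p = 0.0549) and in HIF-2α (2.62, edgeR adjusted p = 0.0167) were of nearly the same size and did not pass.

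Batch 2 had CYP26B1 at 0, 6.46 and 6.05 in WT, 66.9, 54.7 and 62.9 in HIF-1α, 30.6, 36.1 and 29.9 in HIF-2α/1α, 9.95, 8.01 and 22.1 in HIF-2α, and 14.9, 4.73 and 11.9 in HIF-1α/2α. The lines with the HIF-1α IDR lay above all other libraries. It rose by 3.81 (SE 0.557, edgeR adjusted p = 4.57e-07) in HIF-1α and 2.90 (SE 0.567, edgeR adjusted p = 8.89e-05) in HIF-2α/1α. HIF-2α (1.63, SE 0.608, edgeR adjusted p = 0.0334) and HIF-1α/2α (1.33, SE 0.615, edgeR adjusted p = 0.0948) did not pass.

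**Figure D2:**
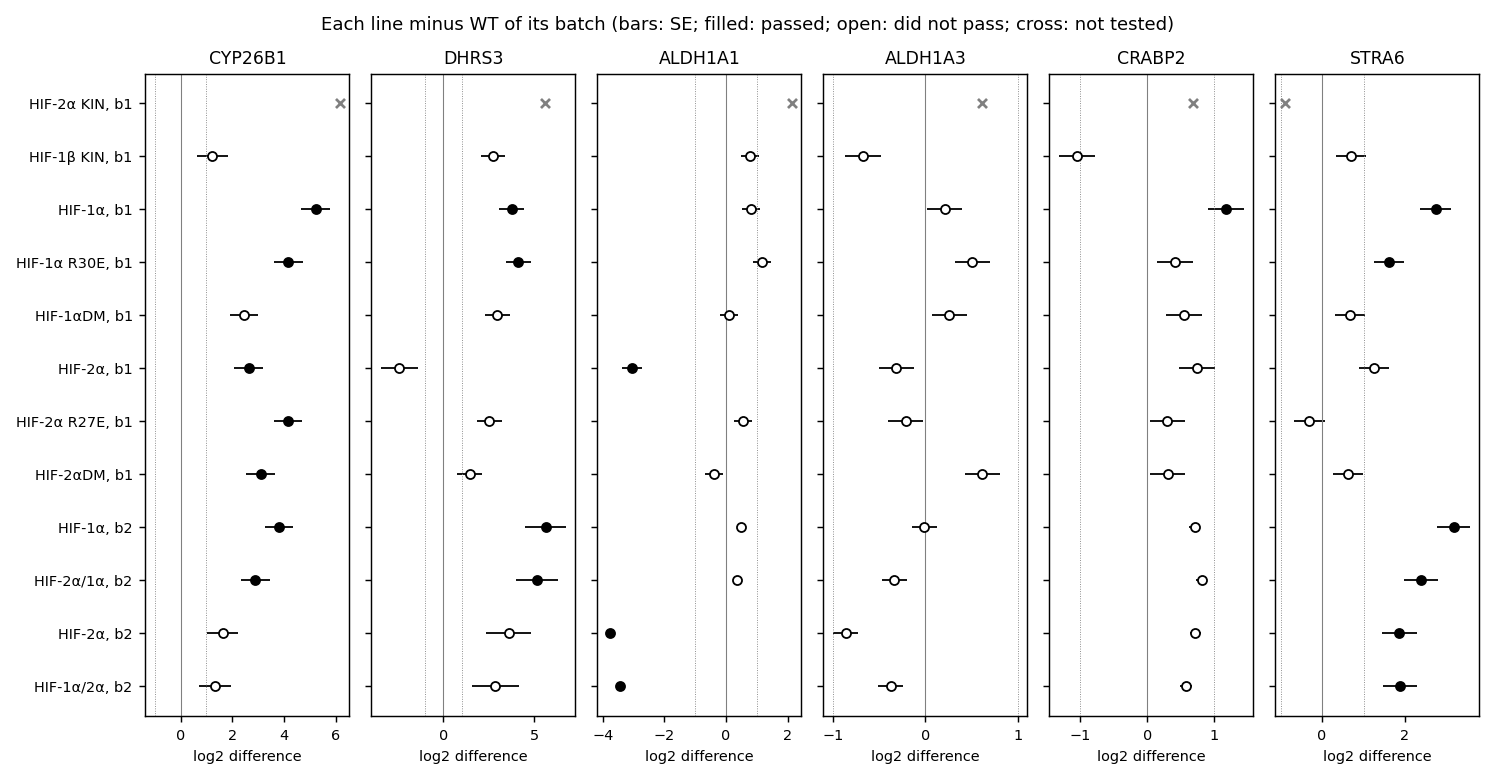
Log2 difference of each line from WT of the same batch (x axis) for 6 members (panels), with batch 1 lines (b1) above batch 2 lines (b2). Bars are SE, filled points passed the thresholds, open points did not, crosses mark HIF-2α KIN, which was not tested, and dotted lines mark 2-fold. ALDH1A1 passes only in HIF-2α of both batches and in HIF-1α/2α, at -3.07, -3.77 and -3.45.

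Set against all genes tested, the members were called in batch 1 as follows. CYP26B1 and DHRS3 were selected with the same WT libraries, so counts against WT that include them are not independent of that choice. Such counts cannot be read as an excess over the share of all genes. Against WT, 4 of 9 passed in HIF-1α (CYP26B1, DHRS3, STRA6 and CRABP2, all higher), beside 3.79% of the 23410 genes. In R30E 3 of 9 passed (CYP26B1, DHRS3 and STRA6, higher), beside 2.61%. In HIF-2α 2 of 9 passed (CYP26B1 higher, ALDH1A1 lower), beside 5.72%. CYP26B1 alone passed in R27E, beside 0.496%, and in HIF-2αDM, beside 0.474%. No member passed in HIF-1β KIN, beside 1.38%, or in HIF-1αDM, beside 0.457%, although 5 and 2 members were at an unadjusted p under 0.05 and DESeq2 called 2 members in each. Under the replicate block the counts rose to 2 in HIF-1β KIN, 2 in HIF-1αDM and 2 in R27E. The median log2 difference over the 9 members was 2.67 in HIF-1α and -0.31 in HIF-2α, beside -0.03 and -0.09 over all genes tested. The 2.67 is the value of CYP26A1, which had 2 counts in HIF-1α and 0 in WT. Both medians rank CYP26A1, ALDH1A2 and RARB, genes close to the limit of detection, so they do not describe a shift of the whole set.

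The batch 1 mutants ask which changes need DNA binding or dimerization with HIF-1β. HIF-1α was higher than HIF-1αDM in CYP26B1 by 2.79 (SE 0.477, edgeR adjusted p = 0.000495) and in STRA6 by 2.06 (SE 0.362, edgeR adjusted p = 0.0007), so that 2 of 9 members passed, beside 1.37% of genes. The STRA6 call was lost without HIF-1αDM replicate 1 (1.87, edgeR adjusted p = 0.0126). Against R30E no member passed, beside 1.75%, with 3 members at an unadjusted p under 0.05 and none called by DESeq2. STRA6 and CYP26B1 were higher in HIF-1α than in R30E without overlap (1.12, SE 0.351, edgeR adjusted p = 0.0788, and 1.07, SE 0.442, edgeR adjusted p = 0.246), and DHRS3 overlapped (-0.38, 95% interval -1.54 to 0.79).

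HIF-2α differed from R27E in 3 of 9 members, beside 3.63%, and from HIF-2αDM in 2 of 9, beside 3.96%. Besides ALDH1A1, DHRS3 was lower than in R27E by -4.96 (SE 0.919, edgeR adjusted p = 0.000508) and than in HIF-2αDM by -3.87 (SE 0.949, edgeR adjusted p = 0.00751), the latter call being lost in all 6 fits without 1 library (edgeR adjusted p from 0.0108 to 0.0571). STRA6 was higher in HIF-2α than in R27E by 1.56 (SE 0.372, edgeR adjusted p = 0.00667), a call lost in 4 of 6 such fits, namely without replicate 1 or 2 of R27E or replicate 2 or 3 of HIF-2α (edgeR adjusted p from 0.0326 to 0.0462), and without the libraries numbered 3 (1.57, edgeR adjusted p = 0.0253). CYP26B1 was lower in HIF-2α than in R27E (-1.52, SE 0.471, edgeR adjusted p = 0.0416), and in this comparison, where the numbers paired the libraries, the replicate block gave -1.48 (edgeR adjusted p = 0.00476). CYP26B1 was thus not higher in the intact HIF-2α line than in either of its mutants.

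**Figure D3:**
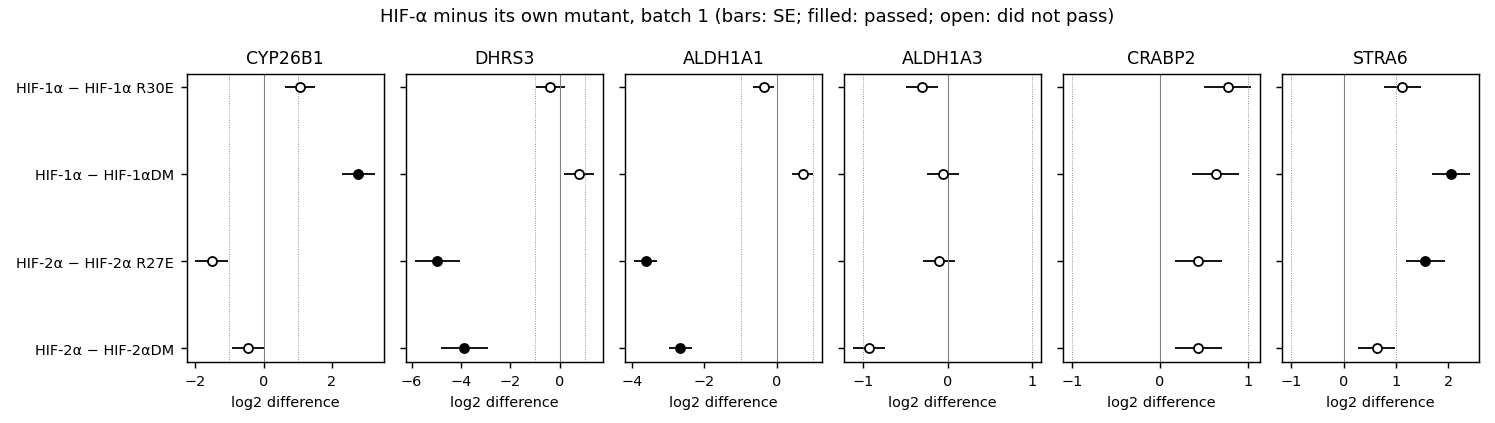
Log2 difference of HIF-1α and HIF-2α from their own mutants in batch 1 (x axis) for 6 members (panels). Bars are SE, filled points passed the thresholds, open points did not, and dotted lines mark 2-fold. HIF-2α is below both of its mutants in ALDH1A1 (-3.63 and -2.67) and DHRS3 (-4.96 and -3.87), and HIF-1α is above HIF-1αDM in CYP26B1 and STRA6.

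Batch 2 asks whether the IDR or the structured domain sets the response. Against WT, 3 of 8 members passed in HIF-1α (beside 4.39% of the 28724 genes tested) and the same 3, CYP26B1, DHRS3 and STRA6, in HIF-2α/1α (beside 3.49%). In HIF-2α (beside 7.58%) and in HIF-1α/2α (beside 7.78%) the 2 members that passed were ALDH1A1, lower, and STRA6, higher. The members called were the same for lines that shared an IDR, although all 4 comparisons share the WT libraries. Since the members were chosen with earlier results of these data known, these counts cannot be read as an excess either.

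Averaged over both structured domains, the HIF-2α IDR gave lower levels than the HIF-1α IDR in 3 of 8 members, beside 4.41% of genes. ALDH1A1 was lower by -4.03 (SE 0.0746, edgeR adjusted p = 1.56e-37), DHRS3 by -2.17 (SE 0.588, edgeR adjusted p = 0.00295) and CYP26B1 by -1.88 (SE 0.354, edgeR adjusted p = 2.73e-05). STRA6 (-0.91, SE 0.248, edgeR adjusted p = 0.00308) and ALDH1A3 (-0.44, SE 0.098, edgeR adjusted p = 0.000266) were under the 2-fold limit, and CRABP2 differed by -0.11 (95% interval -0.23 to 0.007). The DHRS3 call was lost without HIF-2α/1α replicate 1 or 2 or HIF-1α/2α replicate 2 (edgeR adjusted p from 0.0101 to 0.0144), and STRA6 passed in 4 of the 12 fits without 1 library, those without HIF-2α replicate 1 or 3, HIF-2α/1α replicate 3 or HIF-1α/2α replicate 3.

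For the structured domain, HIF-2α against HIF-1α, no member passed, beside 1.04%, with 3 members at an unadjusted p under 0.05 and none called by DESeq2. ALDH1A1 differed by -0.23 (95% interval -0.37 to -0.10), CYP26B1 by -0.31 (interval -1.005 to 0.39) and DHRS3 by 0.12 (interval -0.97 to 1.21). ALDH1A3 differed by -0.405 (SE 0.0979, edgeR adjusted p = 0.00201), under the 2-fold limit and near the size of its IDR difference of -0.445. The interaction of IDR with domain also gave no member, beside 1.18%, with none at an unadjusted p under 0.05 and none called by DESeq2. The rows that hold transgene reads were at 13251.5 ± 489 in HIF-1α, 9589.7 ± 69.4 in HIF-2α/1α and 9685.2 ± 640.2 in HIF-1α/2α for HIF1A, and at 42311.8 ± 640 in HIF-2α, 20668.0 ± 1234.3 in HIF-2α/1α and 51172.5 ± 3145.0 in HIF-1α/2α for EPAS1. Each chimera carries only part of either gene and the EPAS1 row includes endogenous reads, so these values do not compare the transgene levels of the lines. The part of transgene level in the IDR differences was not tested.

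**Figure D4:**
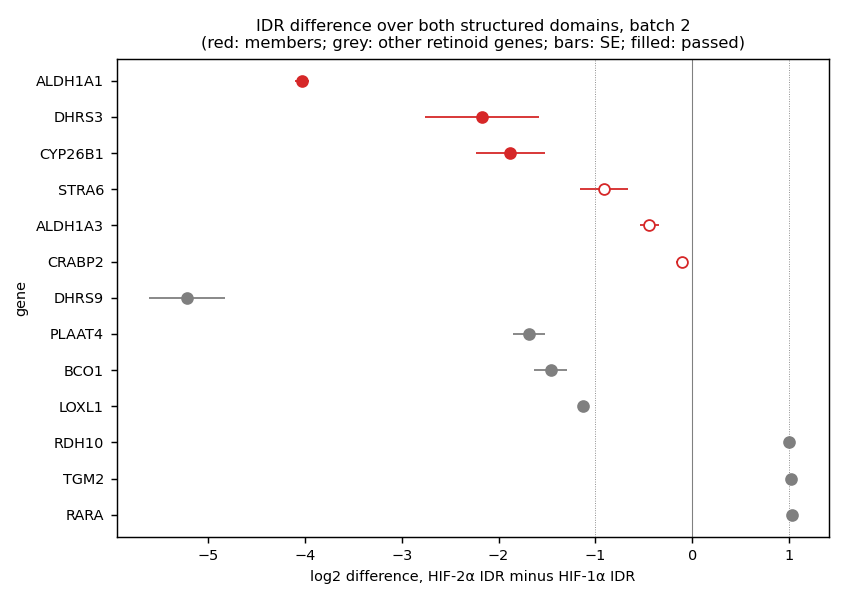
Log2 difference between the HIF-2α IDR and the HIF-1α IDR over both structured domains in batch 2 (x axis) for the 6 members (red) and for the genes of the wider retinoid lists that passed (grey). Bars are SE, filled points passed, open points did not, and dotted lines mark 2-fold. ALDH1A1 (-4.03) and DHRS9 (-5.22) are the lowest, and RARA (1.03) is among the 3 that are higher.

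HIF-1α and HIF-2α were measured in both batches, and the batch difference of each response was fitted on the 18 libraries concerned. No member passed for HIF-1α (beside 0.00374% of 26763 genes) or for HIF-2α (beside 0%), with 2 and 3 members at an unadjusted p under 0.05 and none called by DESeq2. The CYP26B1 response to HIF-1α was smaller in batch 2 by -1.61 (SE 0.866, 95% interval -3.31 to 0.09), an interval that leaves room for a large difference. RNA extraction and library kits also differed between the batches, and these and the lines' history cannot be told apart.

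The wider pathway was read from 4 lists of 59 retinoid genes in all, of which 40 were tested in batch 1 and 43 in batch 2. In batch 1, 1 of 40 rose and 1 fell in HIF-1β KIN, beside 1.38% of all genes tested called in either direction, and likewise in R30E, beside 2.61%, and 3 rose in HIF-2α, beside 5.72%. None of 40 passed in HIF-1α, HIF-1αDM, R27E or HIF-2αDM by edgeR (beside 3.79%, 0.457%, 0.496% and 0.474%), with 12, 6, 6 and 5 at an unadjusted p under 0.05, and DESeq2 called 1 gene in HIF-1α and 0 in the other lines. HIF-2α was higher than R27E in 1 gene (beside 3.63%) and higher than HIF-2αDM in 3 (beside 3.96%). In batch 2, of 43 genes, 2 rose in HIF-1α (beside 4.39%), 1 rose in HIF-2α/1α (beside 3.49%), 3 rose and 2 fell in HIF-2α (beside 7.58%), and 4 rose and 2 fell in HIF-1α/2α (beside 7.78%). With the HIF-2α IDR 3 were higher and 4 lower than with the HIF-1α IDR, beside 4.41%. The median log2 difference over the list genes tested stayed between -0.17 and 0.18 in all these comparisons with WT.

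Among retinol and retinal oxidoreductases, RDH10, the main enzyme that makes retinaldehyde from retinol in embryos, was at 679 ± 61.2 in WT and 2047.6 ± 444 in HIF-2α in batch 1 (log2 difference 1.58, edgeR adjusted p = 5.17e-05). In batch 2 it rose from 1065.6 ± 39.96 in WT to 2353.0 ± 150 in HIF-1α, 3075.6 ± 190 in HIF-2α and 5410.1 ± 196 in HIF-1α/2α (edgeR adjusted p = 8.15e-18, 7.97e-23 and 1.27e-29). DHRS4, a retinaldehyde and ketone reductase, rose in HIF-2α in batch 1 (1.02, edgeR adjusted p = 0.00232) and in HIF-1α/2α in batch 2 (1.15, edgeR adjusted p = 5.25e-14). DHRS9, a retinol dehydrogenase named here after its values were seen because its mean of 42.4 was below the level set for naming, fell from 66.4 ± 20.3 in WT of batch 2 to 2.21 ± 2.33 in HIF-2α and 1.42 ± 0.826 in HIF-1α/2α (edgeR adjusted p = 3.45e-10 and 6.25e-11). RDH10 also rose in R30E (1.41, edgeR adjusted p = 0.00045), so it rose both in lines in which ALDH1A1 fell and in lines in which it did not.

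Among receptors, RARA, the gene of retinoic acid receptor α, rose from 3049.0 ± 956 to 13663.5 ± 2632.3 in HIF-2α in batch 1 (2.15, SE 0.299, edgeR adjusted p = 7.86e-06), and from 1799.0 ± 99.5 to 6316.9 ± 367 in HIF-2α and 6233.5 ± 443 in HIF-1α/2α in batch 2 (edgeR adjusted p = 1.03e-25 and 1.25e-25). It was higher with the HIF-2α IDR by 1.03 (SE 0.0475, edgeR adjusted p = 1.41e-22). In the list for uptake, transport and storage, only BCO1, which cleaves β-carotene to retinaldehyde, passed, from 128 ± 21.3 in WT to 34.5 ± 15.4 in HIF-2α in batch 2 (-1.86, edgeR adjusted p = 7.43e-08). HIF-1α/2α was at 94.1 ± 2.13. BCO1 was lower with the HIF-2α IDR (-1.46, SE 0.173, edgeR adjusted p = 1.92e-09). It was also the 1 gene of 43 that passed for the interaction of IDR with domain (-1.45, SE 0.346, edgeR adjusted p = 0.0034), beside 1.18% of all genes tested.

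Of 15 retinoic acid-responsive genes, 13 were tested in each batch. RARRES2, which encodes chemerin, rose from 29740.9 ± 3068.5 to 78190.4 ± 11475.1 in HIF-1β KIN (1.39, edgeR adjusted p = 0.000129) and in HIF-1α/2α (1.05, edgeR adjusted p = 5.98e-18), and LOXL1, a lysyl oxidase of elastic fibres, fell in both (-1.90, edgeR adjusted p = 0.000152, and -1.36, edgeR adjusted p = 1.45e-18). PLAAT4 rose from 56.8 ± 11.1 to 211 ± 6.37 in HIF-1α and 169 ± 10.0 in HIF-2α/1α (edgeR adjusted p = 3.97e-09 and 3.05e-07) in batch 2. TGM2, tissue transglutaminase, rose in HIF-2α in batch 2 (1.19, edgeR adjusted p = 1.91e-23). The IDR difference was negative for PLAAT4 (-1.69) and LOXL1 (-1.12) and positive for TGM2 (1.02), so the list did not move in a single direction. In batch 2 the mean of TGM2 was 103355.2 in WT, 233383.2 in HIF-2α, 102585.5 in HIF-1α/2α, 65955.6 in HIF-1α and 89076.8 in HIF-2α/1α. Of the lines with the HIF-2α IDR, only HIF-2α thus lay above WT in TGM2.

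Across the 27 libraries of batch 1, the genes whose log2 levels were most like those of CYP26B1 were MOCS1 (Pearson r = 0.901), IMPA2 (0.901) and VSIR (0.891), and those most like DHRS3 were MSI2 (0.934), HOGA1 (0.929) and CLDN2 (0.909). These are descriptions over libraries that share groups and depth. They include the HIF-2α KIN and WT libraries whose contrast selected CYP26B1 and DHRS3. Correlations of these genes are thus in part set by that choice, and nothing is read from them. DHRS3 itself had an r of 0.646 with CYP26B1 and 0.881 with ALDH1A1. In batch 2 the gene most like ALDH1A1 was ADAMTS15 (0.992 over 15 libraries).

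The neighbours of both selected genes were also read in HIF-2α KIN, as a description. Around CYP26B1 (chr2:72129238-72147862), DYSF differed by 1.42 on the log2 scale, ZNF638 by -0.40, EXOC6B by -0.11 and SPR by 0.40, against 6.18 for CYP26B1, and the little expressed RPS20P10 and EMX1 (means of 0.650 and 3.42 normalized counts) by 2.12 and -1.01. Near DHRS3 (chr1:12567910-12618210), VPS13D, the only tested neighbour with a mean over 50 normalized counts, differed by -0.24, against 5.60 for DHRS3. The nearest tested gene on the higher-coordinate side of DHRS3, ENSG00000272482, with a mean of 1.34 normalized counts, differed by 3.51 in HIF-2α KIN and by 2.27 in HIF-1α. The other 4 tested neighbours of DHRS3 had means under 5 normalized counts and differed by -0.92 (SNORA59A), 0.44 (TNFRSF8), -1.30 (HNRNPCL1) and 1.35 (HNRNPCL4). Counting ignored strand, and CYP26B1 overlaps an annotated long noncoding RNA on the opposite strand, so reads of that RNA in shared sequence could not be told apart from those of the gene. Other members also overlap annotated genes on the opposite strand. These are long noncoding RNAs for CRABP2 and ALDH1A3, the pseudogene CYP1D1P for ALDH1A1 and the protein-coding CCDC33 for STRA6. The effect of these overlaps on the counts was not tested.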

How the data were processed

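RNA-seq counts of 42 polyA libraries were used. The authors deposited raw counts per gene, made, per the study's methods, from reads mapped uniquely to hg38 with STAR and counted with HTSeq on GENCODE genes without regard to strand; spike-in rows were not used here. HTSeq is listed as 0.11.1 in the submitters' processing notes. Library totals ran from 42377599 to 109642159 counts. Floors (3 counts) and the exact intervals of the DHRS3 count ratios cover counting error only. The intervals of log2 differences were built from the SE of the edgeR fit, which includes the spread between libraries.

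Each batch was fitted in edgeR 4.0.16 (R 4.3.3) with TMM factors, genes with a mean of at least 0.5 normalized counts, all groups in a single quasi-likelihood fit, and a call at a Benjamini-Hochberg adjusted p of at most 0.01 and a fold of at least 2. The pipeline was tested on simulated data. The IDR and structured-domain differences averaged the 4 batch 2 lines; the batch difference used 18 libraries. Alternatives were DESeq2 1.42.0, RLE size factors, no filter, only the groups compared, a replicate block, leaving out each library and, added after the values were seen, leaving out the libraries numbered 3 of batch 1.

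Libraries of the same number in batch 1 deviated together in 5 of 11 comparisons (every pair's correlation over 0.1; range over all -0.1 to 0.508), and in 0 of 7 in batch 2 (-0.019 to 0.0243). Coordinates are those of GENCODE on hg38, and promoter windows those of RefSeq on GRCh38.p14. Named genes were the members, HIF1A and EPAS1, list genes that passed in HIF-1β KIN, in a line with intact or chimeric HIF-α or for the IDR (at most 4 per list and comparison by size, mean of at least 50), the genes most like the members, and the 3 tested neighbours on either side of CYP26B1 and DHRS3. Members and lists were chosen with earlier results of these data known. The dimerization mutant of HIF-2α was grouped by its title, since its genotype label names HIF-1α.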

Additional observations from a re-analysis of the deposited data

Results flagged for a closer look

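DHRS3 in the HIF-2α line lay on opposite sides of WT in the 2 batches, although neither difference passed the thresholds (-2.43, edgeR adjusted p = 0.124 in batch 1, and 3.59, edgeR adjusted p = 0.0201 in batch 2). In batch 1 all HIF-2α libraries (4.79, 2.97 and 1.08 normalized counts, 6 counts in all) were below all WT libraries, and in batch 2 all HIF-2α libraries (8.95, 2.29 and 3.49, 14 counts in all) were above all WT libraries, which held 1 count in all. The batch difference of the response was 5.83 on the log2 scale (SE 1.62, unadjusted p = 0.00162), and it did not pass over all genes (edgeR adjusted p = 0.172). It passed with the replicate block (5.75, edgeR adjusted p = 0.0007) and without the filter on low counts. Counts this close to the floor limit what the difference can show, and its cause was not tested.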

How the results depend on the processing

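The number of members called did not change with RLE size factors in any of 20 comparisons (median shift of all genes at most 0.1 on the log2 scale). DESeq2 called 2 members in place of 0 in HIF-1β KIN and in HIF-1αDM. Without the filter on low counts, 2 members were called in place of 0 in HIF-1β KIN and in HIF-1αDM, 2 in place of 1 in R27E and 1 in place of 0 for the batch difference of the HIF-2α response. Fitted on only the groups compared, 1 was called in place of 2 in HIF-2α and 0 in place of 1 in R27E. With the replicate block, 2 were called in place of 0 in HIF-1β KIN and in HIF-1αDM, 2 in place of 1 in R27E, 1 in place of 0 for HIF-1α against R30E (STRA6, 1.08, edgeR adjusted p = 0.00984), and 1 in place of 0 for the batch difference of the HIF-2α response (DHRS3, 5.75, edgeR adjusted p = 0.0007); of single genes, the block also brought ALDH1A1 in R30E (1.15, edgeR adjusted p = 0.000654) and STRA6 in HIF-2α (1.18, edgeR adjusted p = 0.00376) past the thresholds, and beside these and the blocked values given with the results it changed no other call. Since the libraries numbered 3 of batch 1 stood apart in several members, batch 1 was also fitted without them, a choice made after the values were seen; 1 member was then called in place of 0 in HIF-1β KIN and in HIF-1αDM, 1 in place of 2 in HIF-2α and 0 in place of 1 in HIF-2αDM. The single calls that changed are given with the results. Leaving out each library in turn, the counts ran from 2 to 4 in HIF-1α and 2 to 3 in R30E, 0 to 1 in HIF-1αDM and in HIF-2αDM, 1 to 3 in HIF-2α, 1 to 2 for HIF-1α against HIF-1αDM and for HIF-2α against HIF-2αDM, 2 to 3 for HIF-2α against R27E and 2 to 4 for the IDR. None of the 44 log2 differences recomputed changed its sign under any alternative run. Apart from the alternatives' own construction, the causes were not tested. Depth limits CYP26A1, ALDH1A2 and RARB in batch 1, where at most 4 of 27 libraries held more than 3 counts of each, and DHRS3 in batch 2, where 8 of 15 did.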
